A study of Drosophila melanogaster with 35 samples.

Results

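The genes described here are the Attacin genes AttA, AttB, AttC and AttD, the Diptericin gene DptB, the Cecropin genes CecA1, CecA2 and CecC, and the Drosocin gene Dro of Drosophila melanogaster. They were chosen by symbol. All 9 are among the 14279 genes of the deposited table and all 9 entered every test. RNA of adult heads from 1-week-old flies was sequenced in 35 libraries of 12 genotypes. In the elav set (18 libraries, 3 per genotype), every fly carried elav-gal4, a driver for neurons, and Repo-LexA, a driver for glia. The control had these drivers alone, and the others added LexAop2-TREM2-WT,TYROBP (TREM2WT/TYROBP), LexAop2-TREM2-R47H,TYROBP (TREM2R47H/TYROBP), UAS-Aβ42, or UAS-Aβ42 with either TREM2 construct. In the GMR set (17 libraries), every fly carried GMR-gal4, a driver for the retina, and Repo-LexA. The control had these alone, and the others added the same TREM2 constructs, UAS-Tau, or UAS-Tau with either construct, with 3 libraries each except 2 for tau alone. TREM2 and TYROBP are human microglial receptor and adaptor proteins and R47H is a TREM2 variant, so in these flies they were made in glia, Aβ42 in neurons and tau in the retina.

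Attacins, Diptericins, Cecropins and Drosocin are antimicrobial peptides, most of them secreted, that kill bacteria, mainly Gram-negative ones. In the fly they are made by the fat body, blood cells and epithelia when peptidoglycan is sensed by the receptors PGRP-LC and PGRP-LE, which signal through Imd, Tak1 and the IKK complex to the NF-kappaB factor Relish (Rel). This IMD pathway is held back by pirk and by the amidases PGRP-LB and PGRP-SC2, and a parallel pathway through the receptor Toll (Tl) controls Drosomycin (Drs). In heads the fat body around the brain and glia can also express these genes.

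The genes were short, with 339 (CecA1) to 900 (AttC) bases of exon. Several lay next to each other in BDGP6. Dro, AttA and AttB occupied chromosome 2R from 14745961 to 14750165, a span of 4205 bases, on the same strand. CecA1, CecA2 and CecC lay with CecB on chromosome 3R from 30210874 to 30216938, a span of 6065 bases. DptB (2R, 18867391 to 18867895) followed Dpt, the other Diptericin gene, within 2131 bases. AttC stood apart on 2R (13393705 to 13394667) and AttD on 3R (17625268 to 17626086). In the annotation AttC overlapped CG4744 by 53 bases and DptB overlapped CG43109 by 48 bases, each on the opposite strand. AttA with AttB and CecA1 with CecA2 are near-identical copies, so the split of reads within each of these pairs is uncertain.

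The values are log2 CPM, the log2 of read counts scaled to a common library size, which the authors adjusted for the RNA integrity number (RIN). Means were compared at equal RIN, and a difference was called when limma's Benjamini-Hochberg adjusted p over all 14279 genes was under 0.05 and the fold change above 1.2. For interactions and driver backgrounds the adjusted p alone was used. An exact permutation test of 3 libraries against 3 has a smallest p of 0.1. In whole heads, fewer cells of a type and less RNA per cell cannot be told apart. The table gives no counts, so depth is unknown. RIN ranged from 6.4 to 7.1 in the elav set and from 5.6 to 7.5 in the GMR set. The study's methods give male flies, and the elav labels carry a Y chromosome. The male-specific roX1 and roX2 summed at equal RIN to 3140 to 3840 CPM in the elav libraries but to 44.8 to 62.7 CPM in the GMR libraries, and the female yolk protein genes Yp1, Yp2 and Yp3 to 47.4 to 315 CPM against 60900 to 95300 CPM. The GMR libraries therefore go against the sex given in the methods, and sex and driver cannot be told apart between the sets. The 5 fat body markers measured (of 6 listed) summed at equal RIN to 19900 to 23900 CPM in the elav and 32900 to 41600 CPM in the GMR libraries. The 6 blood cell markers summed to 698 to 873 and 713 to 1019 CPM as deposited. Fbp1 was the lowest fat body marker, at a log2 CPM of at most -1.47.

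Expression of the members differed widely. Per kilobase of exon, DptB (6.67) and AttC (6.59) had the highest mean log2 CPM per kilobase, followed by AttA (4.45), AttB (4.37), Dro (4.34), CecA1 (3.29), CecA2 (3.18) and CecC (2.28). AttD, a divergent Attacin without a signal peptide, was lowest at -1.14. The residual SD over libraries ran from 0.51 for AttC to 0.92 for AttD on the log2 scale, which placed the members between the 81.6 and 92.2 percentile of all genes. They were therefore among the more variable genes of the table.

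**Figure D1:**
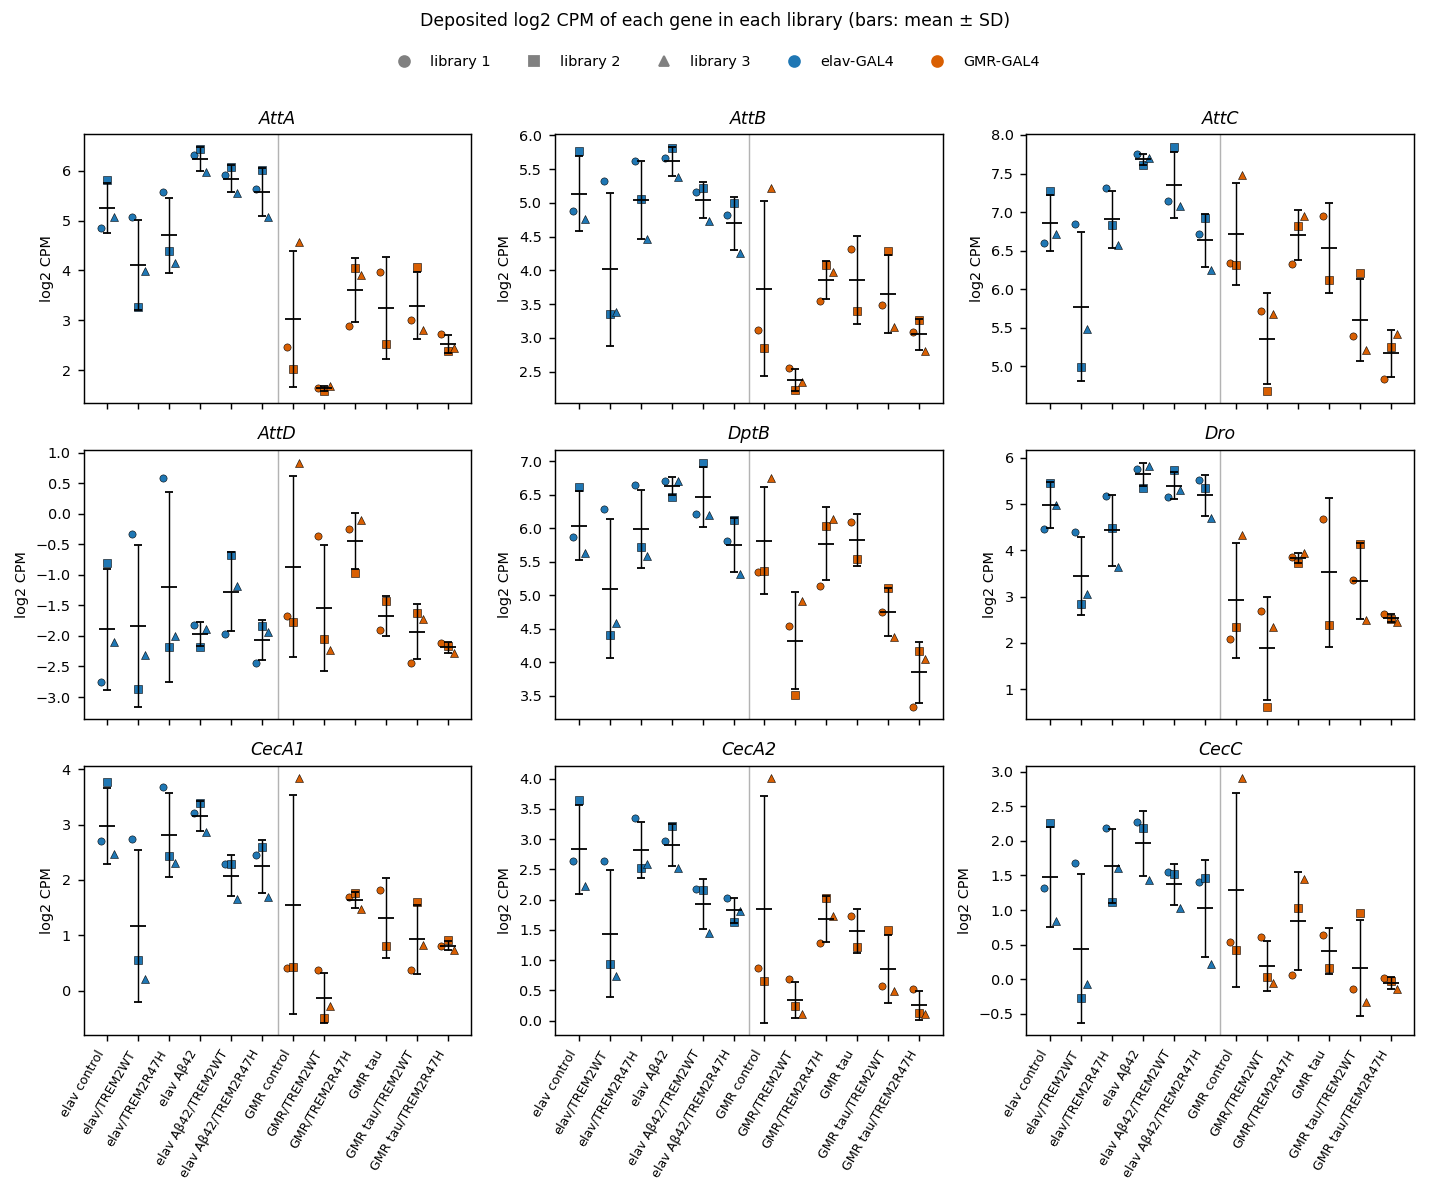
Deposited log2 CPM (y axis) of each of the 9 genes in the 12 genotypes (x axis), with 1 point per library and bars for the mean ± SD; blue is the elav set, orange the GMR set. GMR control library 3 lies above the other GMR control libraries for every gene, and the elav Aβ42 libraries have the highest mean for 8 of 9 genes.

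The genotypes at the ends of the range recurred from gene to gene, while the order between them differed. Means in this paragraph are as deposited unless stated. Aβ42 flies had the highest mean for 8 of the 9 genes, AttD being the exception, with its highest mean in GMR TREM2R47H/TYROBP (-0.44). The lowest mean belonged to tau/TREM2R47H/TYROBP for AttC, AttD, DptB, CecA2 and CecC and to GMR TREM2WT/TYROBP for AttA, AttB, CecA1 and Dro. At equal RIN the lowest CecC mean was in tau/TREM2WT/TYROBP (-0.23, against -0.03 in tau/TREM2R47H/TYROBP). The highest CecA2 mean was then in elav TREM2R47H/TYROBP (2.96, against 2.93 in Aβ42). For AttA the genotype means ran from 1.64 ± 0.05 (SD, n = 3) in GMR TREM2WT/TYROBP to 6.24 ± 0.24 (n = 3) in Aβ42, and all 6 GMR genotypes lay below all 6 elav genotypes. For DptB they ran from 3.85 ± 0.45 in tau/TREM2R47H/TYROBP to 6.63 ± 0.14 in Aβ42, with the GMR and elav genotypes interleaved. Of 99 neighbouring pairs of genotypes in these orders (11 for each gene), 91 differed by no more than the larger of their SDs. For DptB this held for all 11, as for GMR TREM2R47H/TYROBP (5.77 ± 0.55) and GMR control (5.82 ± 0.81). The steps beyond the SD were 2 each for AttA, AttB and CecA1 and 1 each for AttC and CecA2. For AttA, AttB and CecA1 the lowest genotype, GMR TREM2WT/TYROBP, was separated from the next in this way.

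Replicate libraries of a genotype differed together. In 6 of the 12 genotypes the same library was the highest for all 9 genes: library 3 of GMR control, library 2 of tau/TREM2WT/TYROBP, library 2 of elav control, library 1 of elav TREM2WT/TYROBP, library 1 of elav TREM2R47H/TYROBP and library 2 of Aβ42/TREM2WT/TYROBP. GMR control library 3 stood apart the most, between 0.78 and 2.28 above its genotype mean (median 1.58 on the log2 scale). CecA1, an alpha-helical peptide gene, had log2 CPM of 0.41, 0.42 and 3.83 in the GMR control libraries, and AttC had 6.34, 6.32 and 7.48. Library 1 of elav TREM2WT/TYROBP was between 0.90 and 1.56 above its mean, with CecA1 at 2.74 against 0.56 and 0.21 in the other libraries. Over all genes, 597 and 475 differed from the genotype mean by more than 1 on the log2 scale in these libraries, ranks 2 and 10 among the 35 (range 235 to 640). Results for the 9 genes that rest on these libraries are also given without them where the call, the direction or the size changes.

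**Figure D2:**
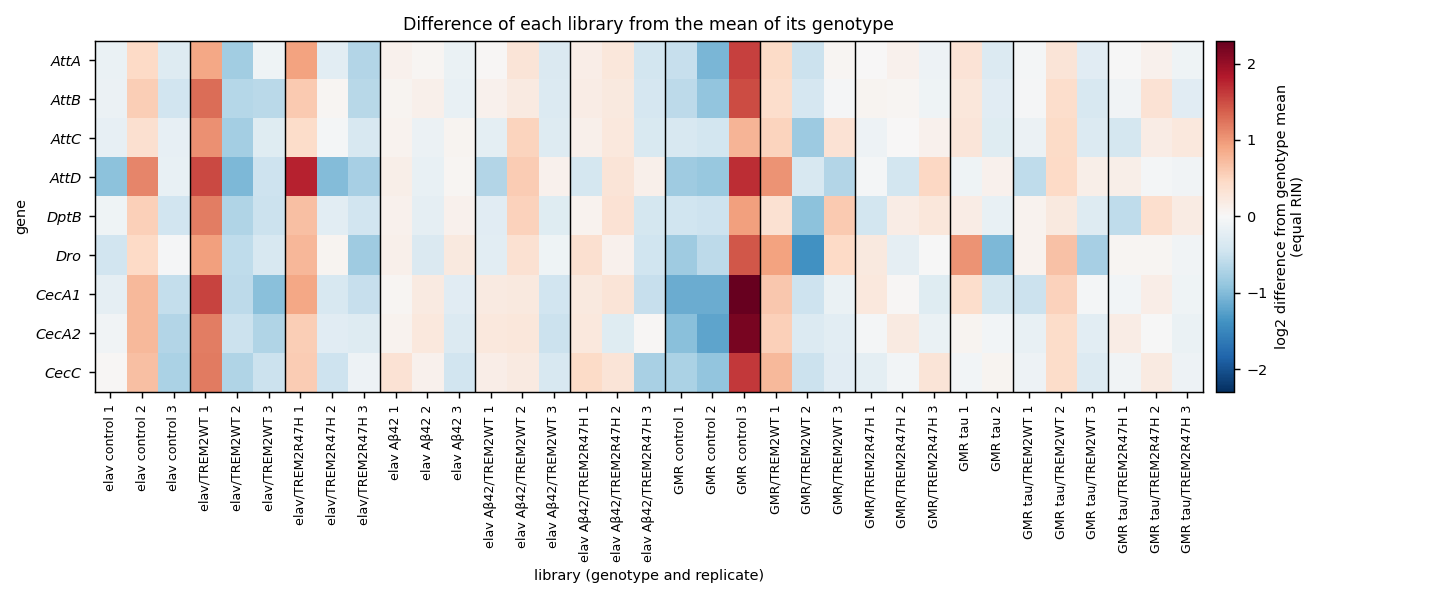
Difference of each library (x axis, grouped by genotype) from the mean of its genotype for each of the 9 genes (y axis), in log2 units at equal RIN; red is above and blue below the mean. Some columns have the same colour from top to bottom and others are mixed, such as GMR TREM2R47H/TYROBP library 1 (-0.42 to 0.25). GMR control library 3 and elav TREM2WT/TYROBP library 1 are the reddest.

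DptB and AttC were lower in tau/TREM2R47H/TYROBP flies than in GMR control. Of the 9 genes these 2 were called, both lower, where 7.95% of all genes were called. DptB, which encodes Diptericin B, had log2 CPM of 3.33, 4.16 and 4.05 in tau/TREM2R47H/TYROBP and 5.34, 5.36 and 6.75 in control. The groups did not overlap, and even without control library 3 the remaining control libraries lay above all tau/TREM2R47H/TYROBP libraries. At equal RIN the mean was 3.85 ± 0.51 against 5.86 ± 0.81, a log2 fold change of -2.00 ± 0.48 (SE; limma adjusted p = 0.00442), or 4.01-fold lower. AttC, which encodes a glycine-rich Attacin, had 4.83, 5.25 and 5.43 against 6.34, 6.32 and 7.48. These did not overlap either, and the log2 fold change was -1.59 ± 0.41 (adjusted p = 0.00797), with a 95% interval of -2.43 to -0.74. Without control library 3 DptB was still called (-1.54, adjusted p = 0.0407), while AttC no longer passed (adjusted p = 0.0642). AttC also missed the threshold without tau/TREM2R47H/TYROBP library 1 (adjusted p = 0.0502).

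The other genes had lower means in the same comparison without passing the test. CecA2, the neighbour of CecA1, had log2 CPM of 0.52, 0.12 and 0.11 in tau/TREM2R47H/TYROBP and 0.86, 0.65 and 4.003 in control. The groups did not overlap, control library 3 lay far above the other control libraries, and the difference was -1.64 ± 0.60 (limma adjusted p = 0.0649). CecA2 passed without control library 1 (adjusted p = 0.0316), without control library 2 (0.0170) and without elav TREM2WT/TYROBP library 1 (0.0488). CecC had 0.02, -0.03 and -0.15 against 0.54, 0.42 and 2.90, at -1.43 ± 0.55 (0.0826), and passed without control library 2 (0.0379). AttD was at -1.28 ± 0.74 (0.274). AttA, AttB, CecA1 and Dro lay between -0.77 and -0.42. The median over the 9 genes was -1.28, and it was -0.43 without control library 3. The median over all genes lay between -0.01 and 0.01 in each of the 25 comparisons made. Over all 9 genes 5 did not overlap between the groups, as did 30.5% of all genes. At equal RIN the fat body sum was 37000 to 40300 CPM in tau/TREM2R47H/TYROBP and 34800 to 37100 CPM in control, and the yolk protein sum 79200 to 88100 and 60900 to 64100 CPM. The fat body marker Lsp2 had log2 CPM at equal RIN of 6.74, 6.75 and 7.05 in tau/TREM2R47H/TYROBP and 6.49, 6.42 and 6.51 in control. The other fat body markers are not given singly. The part of all these markers in the result was not tested.

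DptB was also lower than in flies with tau alone. Tau flies had DptB log2 CPM of 6.10 and 5.55, above the 3 tau/TREM2R47H/TYROBP libraries. Of the 9 genes 6 did not overlap as deposited (28% of all genes) or at equal RIN (34%). The log2 fold change was -1.90 ± 0.54 (limma adjusted p = 0.0377), or 3.74-fold lower, and DptB was the only one of the 9 genes called where 3.48% of all genes were. AttC (-1.28, 6.95 and 6.12 in tau) did not pass, and the median over the 9 genes was -0.67. AttC passed without GMR control library 3 and elav TREM2WT/TYROBP library 1 (limma adjusted p = 0.0356). That setting was chosen after the values were seen, and neither library belongs to the genotypes compared. The call of DptB rests on few libraries: leaving out tau library 1, tau library 2, or tau/TREM2R47H/TYROBP library 1 or 3 gave adjusted p of 0.223, 0.163, 0.162 and 0.0607. With only GMR libraries in the fit DptB was not called either (limma adjusted p = 0.0923). Tau/TREM2WT/TYROBP against tau gave no call (0 of 9, 3.19% of all genes), with DptB 4.75, 5.10 and 4.38 and a median of -0.46. At an unadjusted p under 0.05, 2 of the 9 genes and 2269 of all 14279 passed there.

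With TREM2WT/TYROBP alone in the GMR set, all 9 means were below control, with a median of -1.29, and 1 gene was called where 4.69% of all genes were. AttC had log2 CPM of 5.71, 4.68 and 5.68 against 6.34, 6.32 and 7.48 in control, without overlap, and its log2 fold change was -1.31 ± 0.41 (limma adjusted p = 0.0481), or 2.49-fold lower. DptB had 4.54, 3.51 and 4.92, also below every control library, at -1.46 ± 0.48 (0.0611). Of the 9 genes 5 did not overlap as deposited (21.2% of all genes) and 2 at equal RIN (25.5%). Without control library 3 the median was -0.47 and AttC was not called (adjusted p = 0.217), so the call depends on that library. AttC also missed the threshold with the replicate number as a block (adjusted p = 0.0585), and it was called in only 9 of the 35 fits that left out 1 library. Without elav TREM2WT/TYROBP library 1 DptB was called as well (-1.47, adjusted p = 0.0326). At equal RIN the yolk protein sum was 62800 to 72200 CPM in TREM2WT/TYROBP and 60900 to 64100 CPM in control, and the fat body sum 32900 to 41600 and 34800 to 37100 CPM. A sum can hide single markers. The fat body marker Lsp2 had log2 CPM at equal RIN of 7.79, 7.31 and 8.11 in TREM2WT/TYROBP and 6.49, 6.42 and 6.51 in control. The other fat body markers are not given singly, and the part of all these markers was not tested.

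The remaining GMR genotypes gave no call against control. In TREM2R47H/TYROBP 0 of 9 genes were called (5.76% of all genes) and the median was -0.23, or 0.56 without control library 3. Tau alone gave 0 of 9 (5.32%) with a median of -0.30, or 0.53 without that library, and tau/TREM2WT/TYROBP 0 of 9 (5.70%) with a median of -0.85. In the last of these AttC (-1.33, limma adjusted p = 0.0760) and DptB (-1.26) had no library above any control library. They were the only 2 of the 9 genes without overlap as deposited, against 28.3% of all genes. The median there was -0.02 without control library 3. AttC passed there without elav TREM2WT/TYROBP library 1 (adjusted p = 0.0392) and without GMR TREM2WT/TYROBP library 2 (0.0257). At an unadjusted p under 0.05 limma passed 0, 0 and 3 of the 9 genes, and 3498, 3163 and 2914 of all 14279.

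**Figure D3:**
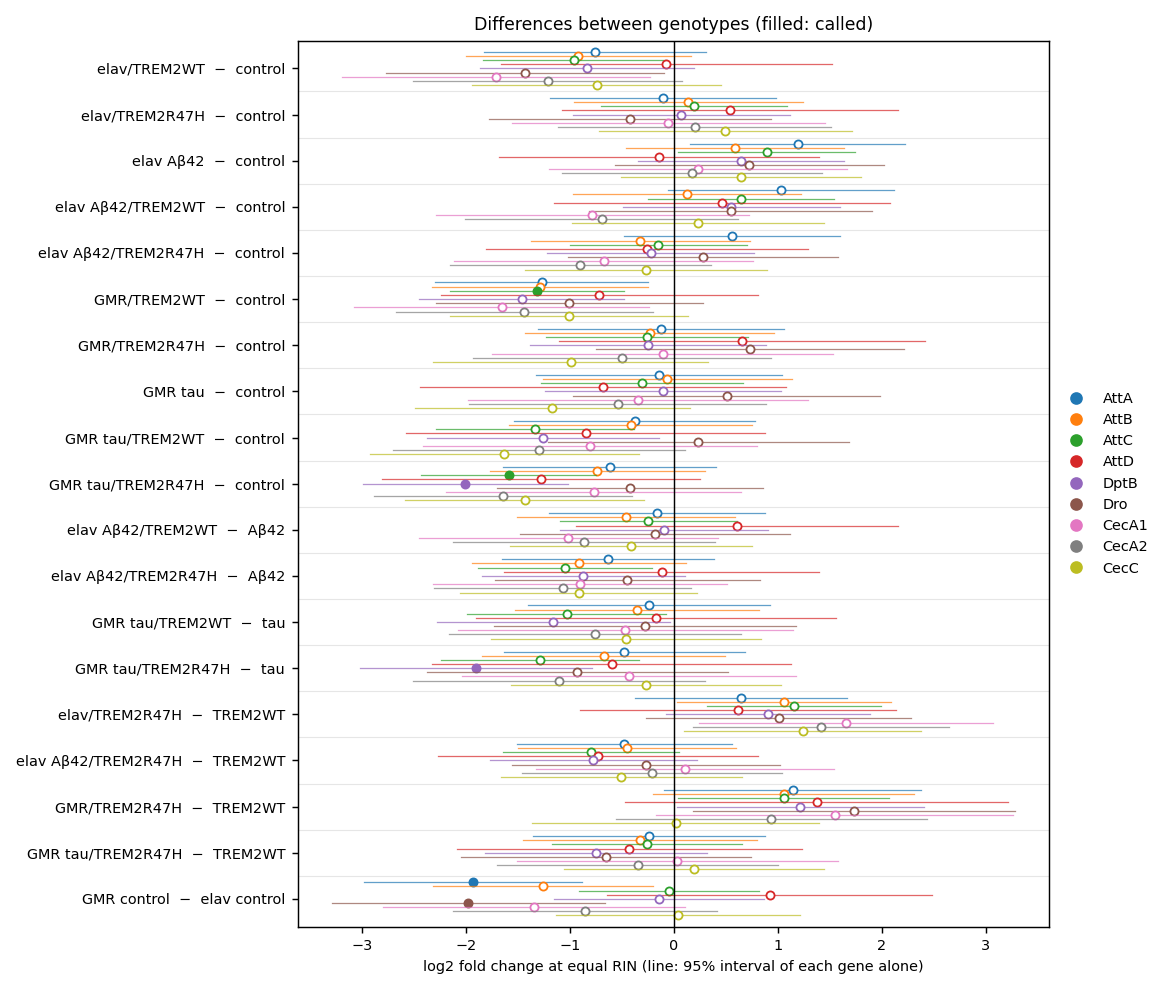
Log2 fold change at equal RIN (x axis) of each gene in 19 comparisons of genotypes (y axis), with lines for the 95% interval of each gene alone; filled points were called. The 6 filled points are AttC and DptB in tau/TREM2R47H/TYROBP against control, DptB against tau, AttC in GMR TREM2WT/TYROBP, and AttA and Dro between the controls.

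No member was called against control in the elav set. TREM2WT/TYROBP flies had lower means for all 9 genes, with a median of -0.92 (0 of 9 called, 4.01% of all genes). CecA1 was at -1.71 ± 0.72 (adjusted p = 0.178) and Dro, which encodes the proline-rich peptide Drosocin, at -1.43 ± 0.65 (0.219). Dro had log2 CPM of 4.40, 2.84 and 3.07 against 4.47, 5.46 and 4.98 in control, the only member without overlap, against 33.6% of all genes. Without library 1 of TREM2WT/TYROBP the median was -1.50 and AttC was called (-1.50, limma adjusted p = 0.0385), where 2.87% of all genes were. Without both that library and GMR control library 3, AttB (-1.57), AttC (-1.50), CecA1 (-2.49) and CecA2 (-1.80) were called (2.85% of all genes). Their limma adjusted p lay between 0.00177 and 0.0209. This second setting was chosen after the values were seen. TREM2R47H/TYROBP flies differed little from control, with a median of 0.14 and 0 of 9 called (4.41%).

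Aβ42 flies had a higher mean than elav control for 8 of the 9 genes, with a median of 0.65 and 0 of 9 called (6.10% of all genes). AttA had log2 CPM of 6.31, 6.43 and 5.96 against 4.85, 5.82 and 5.07, without overlap, and a log2 fold change of 1.19 ± 0.50 (adjusted p = 0.137). AttC had 7.75, 7.61 and 7.70 against 6.59, 7.28 and 6.71, also without overlap, at 0.89 ± 0.41 (0.183). These were the only 2 of the 9 genes without overlap, against 29.3% of all genes. AttA passed once GMR control library 3 was left out (adjusted p = 0.0413), a library that enters this comparison only through the shared estimate of the spread. Aβ42/TREM2WT/TYROBP (0 of 9 called, 8.66%) had a median of 0.47 and Aβ42/TREM2R47H/TYROBP (0 of 9, 10.5%) a median of -0.26 against control. At an unadjusted p under 0.05, 3, 0, 2, 0 and 0 of the 9 genes passed for TREM2WT/TYROBP, TREM2R47H/TYROBP, Aβ42, Aβ42/TREM2WT/TYROBP and Aβ42/TREM2R47H/TYROBP. Of all 14279 genes 2777, 2982, 3366, 3922 and 4360 passed there.

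Adding TREM2/TYROBP to Aβ42 gave no call. With TREM2R47H/TYROBP all 9 means were below those of Aβ42 alone, with a median of -0.90 (0 of 9 called, 6.16% of all genes). AttC had 6.72, 6.93 and 6.25, below all 3 Aβ42 libraries, at -1.04 ± 0.40 (adjusted p = 0.0949), and 5 of the 9 genes did not overlap as deposited (30.6% of all genes) and 7 at equal RIN (31.3%). Without GMR control library 3 and elav TREM2WT/TYROBP library 1, AttB, AttC and CecA2 were called, with limma adjusted p of 0.0458, 0.0316 and 0.0279 (6.13% of all genes called). That setting was chosen after the values were seen, and neither library belongs to the genotypes compared here. With TREM2WT/TYROBP the median was -0.25 (0 of 9, 3.10%). At an unadjusted p under 0.05 limma passed 1 of the 9 genes with TREM2R47H/TYROBP and 0 with TREM2WT/TYROBP, and 3778 and 2615 of all 14279. These comparisons share the Aβ42 libraries with the comparison of Aβ42 and control.

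TREM2R47H/TYROBP and TREM2WT/TYROBP were compared directly in 4 settings, and no member was called. Alone in the elav set all 9 means were higher with R47H, with a median of 1.06 (0 of 9 called, 1.88% of all genes). AttC (6.85, 4.99 and 5.48 with TREM2WT; 7.31, 6.84 and 6.57 with TREM2R47H) differed by 1.15 ± 0.41 (adjusted p = 0.138), and the groups overlapped only through TREM2WT/TYROBP library 1. Without that library the median was 1.68 and AttC was called (1.68, limma adjusted p = 0.0237), where 1.44% of all genes were. Without GMR control library 3 as well, AttB, AttC, CecA1, CecA2 and CecC were called (1.41% of all genes), with differences from 1.68 to 2.43. This second setting was chosen after the values were seen, from libraries highest for all 9 genes, so its calls are not separate evidence. Alone in the GMR set all 9 means were also higher with R47H, with a median of 1.15 (0 of 9, 1.77%), and 7 of the 9 genes did not overlap as deposited (16.5% of all genes) or at equal RIN (24.8%). Dro had 3.86, 3.73 and 3.94 with TREM2R47H against 2.70, 0.62 and 2.33 with TREM2WT, a difference of 1.74 ± 0.75 (0.278). RIN averaged 6.07 in these TREM2R47H/TYROBP and 7.00 in the TREM2WT/TYROBP libraries. Without RIN in the model, which leaves only the authors' own adjustment for RIN, AttA, AttC and Dro were called. The RIN term therefore decides these calls. Mean AttA was 3.61 with TREM2R47H and 1.64 with TREM2WT as deposited, and 3.05 and 1.90 at equal RIN. The slopes on RIN ran from -0.89 ± 0.37 per RIN unit (SE) for AttA to 0.29 ± 0.55 for AttD. They are slopes within genotypes that remained after the authors' adjustment, not the full dependence on RIN.

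With Aβ42 or tau present the R47H and WT means were closer. The median difference was -0.48 with Aβ42 (0 of 9 called, 1.64% of all genes) and -0.32 with tau (0 of 9, 2.07%). The 4 interactions compared the effect of adding TREM2/TYROBP in the presence and in the absence of Aβ42 or tau, and none gave a call. For TREM2WT/TYROBP the median was 0.68 with Aβ42 (0.238% of all genes called), and 1.25 without elav TREM2WT/TYROBP library 1, above 0 for all 9 genes either way. With tau it was also 0.68 (0.357%), above 0 for all 9 genes, but without GMR control library 3 it was -0.11, above 0 for 4. For TREM2R47H/TYROBP the median was -0.94 with Aβ42 (0.672%). With tau it was -0.61 (0.175%), and -1.42 without GMR control library 3. The lowest limma adjusted p among the 36 interaction values was 0.467, and 1 had an unadjusted p under 0.05. Of all 14279 genes 1010, 1465, 2076 and 1524 had one in the 4 interactions, in the order given. In the 4 direct comparisons of R47H and WT 8 of 36 values had an unadjusted p under 0.05. Of all genes these were 2281 (elav alone), 1963 (with Aβ42), 2057 (GMR alone) and 2137 (with tau). Between the GMR and elav sets no member was called for a difference in the TREM2WT/TYROBP effect (0 of 9, 1.82% of all genes) or the TREM2R47H/TYROBP effect (0 of 9, 0.469%), and 0 of 18 had an unadjusted p under 0.05. The direction of these differences depends on single libraries. For TREM2WT/TYROBP the median was -0.36, but 0.38 without GMR control library 3 and 0.29 without elav TREM2WT/TYROBP library 1. For TREM2R47H/TYROBP it was -0.32, but 0.35 without GMR control library 3. Because the 9 genes vary together between libraries, a shared sign over the 9 is not 9 independent observations.

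Between the controls, AttA and Dro were lower in the GMR set. They were 2 of the 9 genes called, where 38.6% of all genes were, so the share called is below the background. AttA had log2 CPM of 2.47, 2.03 and 4.58 in GMR control and 4.85, 5.82 and 5.07 in elav control, a log2 fold change of -1.93 ± 0.51 (limma adjusted p = 0.00376), or 3.81-fold lower. Dro, its neighbour on 2R, had 2.09, 2.33 and 4.33 against 4.47, 5.46 and 4.98, a change of -1.97 ± 0.63 (0.0158), or 3.93-fold lower. Neither gene overlapped between the sets, against 54.7% of all genes. AttB, the third gene of that cluster, was at -1.26 ± 0.51 (0.0561), while AttC (-0.05), DptB (-0.14) and CecC (0.04) were near 0 and AttD was at 0.92. Without GMR control library 3 these were at -0.43, -0.60, -0.77 and 0.08, none of them called. Without that library AttA, AttB, CecA1, CecA2 and Dro were called (33.3% of all genes), with changes from -2.71 to -1.93. Dro was not called without GMR control library 1 (adjusted p = 0.0823), GMR control library 2 (0.0729) or elav control library 2 (0.0588). AttB passed without elav control library 3 (0.0493) and without elav TREM2WT/TYROBP library 1 (0.0261). With the replicate block Dro had an adjusted p of 0.0581 and AttB was called (0.0428). Driver, stock, sex markers and fat body markers all differ between these controls (fat body sum at equal RIN 34800 to 37100 CPM in GMR and 20100 to 21100 CPM in elav control) and cannot be told apart.

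The members varied together within genotypes. Over the 36 pairs of members the correlation of library deviations from the genotype mean at equal RIN ran from 0.65 to 0.96 (median 0.81). Of 11 pairs tested by permuting libraries within genotypes (100000 permutations, two-sided), 10 passed after Benjamini-Hochberg adjustment, all positive. DptB and AttC, on different parts of 2R, had Pearson's r = 0.95 and Spearman's rho = 0.94 over 35 libraries (permutation p = 1e-05 for each, the smallest these permutations can give; adjusted p = 3.67e-05 and 2.75e-05). Without the 2 libraries farthest from the median r was 0.93, and it was 0.97 in the elav and 0.93 in the GMR set alone. The neighbouring copies AttA and AttB had r = 0.95 and rho = 0.95 (adjusted permutation p = 3.67e-05 and 2.75e-05), and CecA1 and CecA2 r = 0.95 and rho = 0.86 (9.17e-05 and 0.00011). AttC and AttD had the weakest tested relation among members, r = 0.72 and rho = 0.61 (permutation p = 0.00119 and 0.00448; adjusted 0.00131 and 0.00493). Its r was 0.61 without the 2 farthest libraries and 0.63 in the GMR set, where the adjusted permutation p was 0.111.

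The relation extended to other targets of the pathway but not to Drosomycin. DptB varied with Mtk, the Metchnikowin gene (r = 0.90, rho = 0.88; adjusted permutation p = 3.67e-05 and 2.75e-05), and with PGRP-SB1, a peptidoglycan-cleaving amidase (r = 0.86, rho = 0.84; adjusted 0.00011 and 7.33e-05). With Drs, the standard readout of the Toll pathway, r was -0.01 and rho 0.11 (permutation p = 0.956 and 0.531), and r was 0.22 within the GMR set. Drs had log2 CPM of 4.72, 4.68 and 4.87 in GMR control, close together in the libraries where DptB ranged from 5.34 to 6.75.

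**Figure D4:**
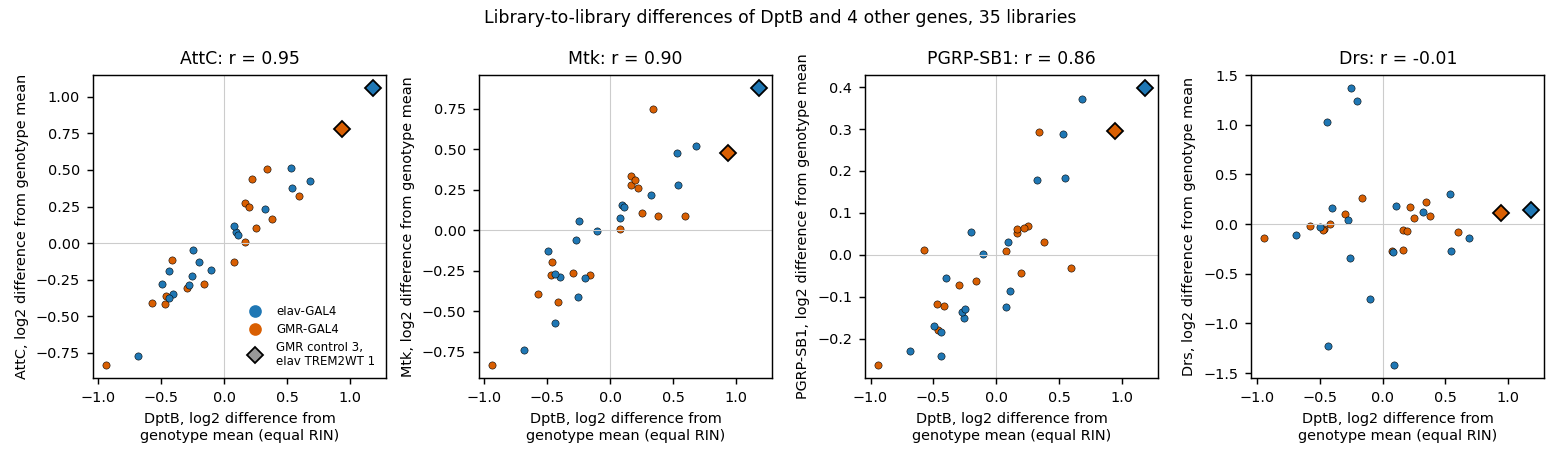
Deviation of each library from its genotype mean at equal RIN, in log2 units, for DptB (x axes) against AttC, Mtk, PGRP-SB1 and Drs (y axes), with 1 point per library, blue for the elav and orange for the GMR set. Points rise together for AttC (r = 0.95), Mtk (0.90) and PGRP-SB1 (0.86) and show no relation for Drs (-0.01); the diamonds are GMR control library 3 and elav TREM2WT/TYROBP library 1.

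Outside the 9, the genes whose values were most like the mean standardized member value over the 35 libraries were Dpt (Pearson's r = 0.94), CR45045 (0.92), CG43920 (0.88), CR44404 (0.87) and CecB (0.86). Dpt and CecB are the remaining genes of the DptB and Cecropin clusters, and CR44404 is named IBIN in RefSeq. CG43920 lies within Smurf on the other strand. These are descriptions over libraries that share genotypes and processing.

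Other antimicrobial peptide genes did not all move with the members. Of 15 measured, Mtk was lower in tau/TREM2R47H/TYROBP than in GMR control (-1.41 ± 0.39, limma adjusted p = 0.0140) and in GMR TREM2WT/TYROBP (-1.54 ± 0.39, 0.0157), the contrasts in which DptB or AttC fell. Dpt was at -1.45 and -1.30 there and CecB at -1.46 and -2.15, none of them called. Drs was at -0.04 and 0.22. Fits that left out libraries were read for the 9 members only, so Mtk is not given without GMR control library 3. How far its calls rest on that library was not tested. In the opposite direction, Drsl4, Drsl5 and IM2 rose in tau/TREM2R47H/TYROBP against control, Drsl4 by 0.86 ± 0.13 (2.75e-05), so 3 of the 15 rose and 1 fell, where 3.87% of all genes rose and 4.08% fell. Against tau 2 of the 15 rose (1.78% of all genes), Drsl4 (1.06) and Drsl5 (0.65). Between the controls 7 of the 15 were lower in the GMR set (Drsl4, Drsl5, Listericin, edin, IM1, IM2 and Bbd) and 0 higher, where 18.1% of all genes were lower and 20.5% higher. Genotype means of Bbd (9.45 to 10.2 log2 CPM), IM2 (7.23 to 8.60), IM1 (6.36 to 7.53), Mtk (at least 6.06) and Drsl5 (5.83 to 7.38) were the highest. Drsl4 (4.43 to 6.79), Listericin (4.88 to 6.28), Dpt (3.32 to 6.30), Drs (3.29 to 5.43), Def (at least 0.70), edin (-0.82 to 1.53), CecB (-2.78 to 0.55), Drsl2 (-2.77 to -1.37), Drsl6 (-5.83 to -2.55) and Drsl3 (-5.91 to -4.09) followed.

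Some of 16 IMD pathway genes were called in each comparison in which a member was. They were too few to set apart from the share of all genes called, except between the controls, where this was not tested. In tau/TREM2R47H/TYROBP against control 1 of 16 rose and 1 fell, beside 7.95% of all genes called: Tab2, a Tak1 partner, by 0.34 ± 0.05 (limma adjusted p = 1.09e-05) and PGRP-SD, a secreted peptidoglycan receptor, by -0.87 ± 0.09 (3.89e-07). Their median was 0.02. Of 13 genes listed as negative regulators 1 fell, pirk (-0.43 ± 0.11, limma adjusted p = 0.00622). Genes of these lists, too, are not given without GMR control library 3. Of 14 Toll pathway genes limma called 0, and 5 had an unadjusted p under 0.05, as had 3972 of all 14279 genes. In GMR TREM2WT/TYROBP, with 4.69% of all genes called, Rel fell (-0.37 ± 0.05, limma adjusted p = 6.87e-06), the only gene of the 16. Of the genes listed as negative regulators pirk (-0.44), PGRP-LF (-0.28) and PGRP-SB1 (-0.78) fell. PGRP-SB1 is on that list but is named above as a target of the pathway. Against tau, with 3.48% of all genes called, PGRP-LA rose (0.31) and PGRP-SD fell (-0.72) in tau/TREM2R47H/TYROBP, and of the Toll genes SPE rose (0.28) and GNBP1 fell (-0.27). Between the controls, where 38.6% of all genes were called (20.5% higher and 18.1% lower), 10 of 16 IMD genes were higher and 1, PGRP-SD (-0.66), was lower, with Tab2 (0.33), PGRP-LA (0.32), key (0.28) and Rel (0.28) the largest. There 3 of the 13 negative regulators (PGRP-LF, casp and scny) were higher and 2 (PGRP-LB at -0.42 and PGRP-SC2 at -2.14) lower, and 8 of 14 Toll genes were higher and 1 (SPE, -0.38) lower.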

How the data were processed

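RNA-seq of fly heads was analysed in 35 libraries, grouped by the genotype in the labels. By the study's methods more than 100 flies were pooled per genotype; nothing says that libraries came from separate crosses, so p-values measure the spread between libraries. The authors aligned reads to BDGP6 with STAR 2.5.0b, counted them per gene with featureCounts, dropped genes that did not reach 5 reads in any library, scaled by TMM and adjusted for RIN, and deposited the result as log2 CPM. Whether counting used strand is not given in the sources used here. Depth is unknown. Over all libraries the deposited values had no slope on RIN (at most 3.02e-14), so RIN entered the model with the 12 genotypes.

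Linear models were fitted with limma 3.58.1 (lmFit, eBayes; R 4.3.3) to all 35 libraries, with 22 residual and 1.05 prior degrees of freedom, no pseudocount and no further filter, and Benjamini-Hochberg adjustment over 14279 genes. The 25 comparisons were those against the driver-matched control (10), with TREM2/TYROBP added (4), R47H against WT (4), interactions (4) and between driver sets (3). The code was tested on simulated data. Means are ± SD and differences ± SE.

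The members, the lists of other immune genes and markers, and the tests were chosen with earlier results of these data known. All 9 members are described. Of the lists, each antimicrobial peptide gene is given with its level and pathway genes where called in a comparison in which a member was called. The 5 most alike genes were ranked by Pearson's r. Of the listed genes Drsl1, Anp, AttE, PGRP-SC1a, FASN1 and Mst57Da are not analysed here. No sequence is shown and the planned motif search was not run, since no sequence table was used here. Alternatives were no RIN covariate, fewer libraries in the fit, a filter on a mean log2 value of 0, 1 added before log2, quantile or median scaling, trend and robust eBayes, other fold thresholds, a replicate block and leaving out each library. Same-numbered libraries of tau/TREM2R47H/TYROBP and GMR control had correlated deviations over genes (0.17 to 0.46 in 3 pairs), and in no other comparison were all pairs above 0.1. The labels do not say that the numbers mark shared batches. Plots were drawn with matplotlib 3.10.9.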

Additional observations from a re-analysis of the deposited data

How the results depend on the processing

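The direction of the 6 called differences was kept under every alternative run. DptB in tau/TREM2R47H/TYROBP against GMR control passed in 35 of 35 fits that left out 1 library and in 10 of 11 other alternatives, and AttC in 33 and 10. DptB against tau passed in 31 and 9, AttC in GMR TREM2WT/TYROBP in 9 and 6, and between controls AttA passed in 35 of 35 and 7 of 8 and Dro in 32 and 6. With only the genotypes compared in the fit, which leaves few degrees of freedom, the counts of called member differences fell to 0 against control (from 3), 0 with TREM2/TYROBP added (from 1) and 0 between driver sets (from 2). With only libraries of the same driver 0 were called with TREM2/TYROBP added. A mean log2 value of at least 0 gave 5 against control, with fewer genes in the fit. Without the RIN covariate 3 were called in R47H against WT. Leaving out 1 library gave 2 to 7 calls against control (5 without GMR control library 2, 7 without elav TREM2WT/TYROBP library 1), 0 to 1 with TREM2/TYROBP added, 0 to 1 in R47H against WT, 0 to 0 in interactions and 1 to 5 between driver sets. Leaving out GMR control library 3 and elav TREM2WT/TYROBP library 1 together, chosen after seeing the data, gave 7, 5, 5, 0 and 5. Where not stated, the cause was not tested. With the replicate block the counts were 2, 1, 0, 0 and 2, and calls other than AttC in GMR TREM2WT/TYROBP, Dro and AttB were unchanged; in tau/TREM2R47H/TYROBP against control DptB had an adjusted p of 0.00459 and AttC of 0.0103. Of 11 correlations 9 passed in the GMR set and 10 in each other setting. Unknown depth limits what can be said of AttD, whose values lay below 1 CPM in most libraries.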
